A study of Homo sapiens with 4 samples.

Results

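The cytosolic ribosomal protein genes were followed in 786-O, an established human cell line from a clear cell renal carcinoma without functional VHL. Members were the rows of the deposited expression table with a gene name of the form RPL or RPS plus a number (with an optional final A, L or, for RPS, X), or one of the stalk names RPLP0, RPLP1 and RPLP2. The rule found 82 of the 56753 rows. Of these, 51 named a single gene, 21 shared their row with a small nucleolar RNA (snoRNA), and 10 shared it with other genes only. A row with several names holds 1 value for all of them, so the 3 classes were kept apart. The rows carry 81 symbols, because RPL41 has 2 rows. Cells stably transduced with the control vector (2 libraries) were compared with cells stably transduced with PRDM16 lentivirus (2 libraries), to learn how an excess of PRDM16, a zinc finger regulator of transcription, affects the transcriptome. The labels name neither the promoter driving PRDM16 nor whether each line was a pool or 1 clone. Nor do they say that replicates were separate cultures, so the tests rest on a spread between libraries that could be technical only.

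Ribosomal proteins of the small subunit (RPS) help decode the mRNA and those of the large subunit (RPL) surround the centre where peptide bonds form, with RPLP0, RPLP1 and RPLP2 making the stalk that recruits translation factors. Each protein is needed in about equal amounts, and its mRNA usually begins with a run of pyrimidines, the terminal oligopyrimidine tract, through which mTOR and LARP1 control its translation. Many of these genes carry snoRNAs in their introns. Nearly all have processed pseudogenes, intronless copies scattered over the genome, whose near-identical sequence makes short reads hard to place. Ribosomal protein genes are among the most strongly expressed genes of growing cells.

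PRDM16 itself stood at 0.0157 and 0.234 FPKM (fragments scaled to transcript length and library size) in the control vector libraries and at 1226 and 1146 FPKM in the PRDM16 libraries. The libraries had between 23138 and 24490 loci above 0. Read totals are unknown. From the step of the lowest values, the deepest library, control vector replicate 2, had 1.39 times the depth of the shallowest, control vector replicate 1. Of 7 renal tubule markers 4 were tested, with PAX8, a transcription factor of the renal lineage, at 202 and 208 FPKM in the control vector against 190 and 169 FPKM in PRDM16, while CUBN, LHX1 and LRP2 lay near 0. All 4 had a log2 change below 0, with a median of -0.18, and 3 had both PRDM16 libraries below. Limma called 0 of them, and 1 (CDH16) had an unadjusted limma p under 0.05. Of all 13246 tested loci, 6529 had a log2 change below 0. Both PRDM16 libraries lay below in 20.3%, and 3.70% were lower at an unadjusted limma p under 0.05. The part of these markers in the results on ribosomal proteins was not tested. The summed level of 5 leukocyte markers was 0.192 to 0.28 FPKM in the 4 libraries, that of 4 endothelial markers 0.188 to 0.22 FPKM, and 3 erythroid markers were listed at 0. Of 4 fibroblast markers, COL1A1 and LUM lay near 2 FPKM.

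The ribosomal protein rows were abundant and close in level between the groups. In these bulk libraries, fewer cells expressing a gene and less RNA per cell cannot be told apart. Their summed level was 31980 and 32792 FPKM in the control vector libraries and 33331 and 34541 FPKM in the PRDM16 libraries. Both PRDM16 sums lay above both control sums. As a share of all FPKM in a library, however, the sums were 5.57% and 5.90% in the control vector, against 5.83% and 6.02% in PRDM16, and these shares overlap. Of the 82 rows, 75 passed the minimum of a mean of 1 FPKM and were tested. The highest was RPL8, a large subunit protein, on a row shared with a microRNA, at 2311 and 2328 FPKM in the control vector, against 2333 and 2221 FPKM in PRDM16. RPL37A and RPL30 followed, with means of 1592 and 1456 FPKM over the 4 libraries. The lowest tested rows were the second RPL41 row (mean 1.06 FPKM), RPS26 (2.80 FPKM) and RPL21 (3.42 FPKM). FPKM are scaled for length, but these rows are not plain levels of single genes. Some rows hold several genes, RPL41 is split over 2 rows, and 18 genes had more signal in their pseudogenes than in their own row. For proteins needed in about equal amounts, the rows spanned from 1.06 to 2298 FPKM.

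No ribosomal protein row passed the test. With limma on log2(FPKM + 1) and Benjamini-Hochberg adjustment over all 13246 tested loci, 3 loci in all were called at an adjusted p under 0.05 (0.0226%), and 0 of the 75 members were among them. The smallest adjusted p of a member was 0.175. At an unadjusted p under 0.05, 5 members were higher with PRDM16 (RPS28, RPL7, RPS12, RPL19 and RPL6) and 0 were lower, beside 2.42% of all tested loci higher and 3.70% lower. Among the 75 members 61 had a log2 change within 0.2 of 0, and the whole range ran from -0.41 to 1.65.

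The members nevertheless leaned to one side. The log2 change was above 0 for 57 of 75 members (76.0%), against 50.7% of all tested loci. In 28 members (37.3%) both PRDM16 libraries lay above both control libraries, against 21.1% of all loci. In 2 members (2.67%), RPS27A and the second RPL41 row, both lay below, against 20.3% of all loci. The median log2 change of the members was 0.08, beside 0.00 for all tested loci. Abundant loci as a whole leaned the same way. Among all 1134 loci, members included, with a mean of at least 100 FPKM, 62.9% had a log2 change above 0, 28.0% had both PRDM16 libraries above and 14.4% had both below, with a median of 0.05. For the 57 members at that level the counts were 45 above 0, 24 with both libraries above (42.1%) and 0 with both below, with a median of 0.06. Under quantile normalization, which gives the 4 libraries the same distribution, 17 of 75 members (22.7%) had both PRDM16 libraries above, beside 21.5% of all loci, while 52 still had a log2 change above 0. With 1 library fewer to order, 47 of 75 members (62.7%) had all PRDM16 values above all control values without control vector replicate 2, beside 34.0% of all loci, and 47 without PRDM16 replicate 1, beside 34.4%. Without PRDM16 replicate 2 the count was 34 (45.3%), beside 30.1%, and the members' median was 0.05. Without control vector replicate 1 it was 37 (49.3%), beside 43.9%. In that setting 18 of 75 members lay below, beside 5396 of all 13246 loci. A log2 change above 0 was then seen in 48 members (64.0%), beside 51.6% of all loci.

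The lean was not shared evenly by the libraries. PRDM16 replicate 2 held the highest value of 44 of the 75 members, control vector replicate 2 of 17, PRDM16 replicate 1 of 9 and control vector replicate 1 of 5. In the same order, the counts over all 13246 tested loci were 3600, 4495, 2142 and 3009. Over the 1134 loci at 100 FPKM or more they were 435, 299, 148 and 252. Control vector replicate 1, the shallowest library, held the lowest value of 33 members and control vector replicate 2 of 23. Over all 13246 tested loci these counts were 2502 and 5149, and over the 1134 at 100 FPKM or more 191 and 596. Against the mean of the control libraries, the median member was 0.05 higher in PRDM16 replicate 1 and 0.10 higher in PRDM16 replicate 2 on the log2 scale. Between the control libraries the median member was 0.03 higher in replicate 2 than in replicate 1. The part of depth in this pattern was not tested.

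**Figure D1:**
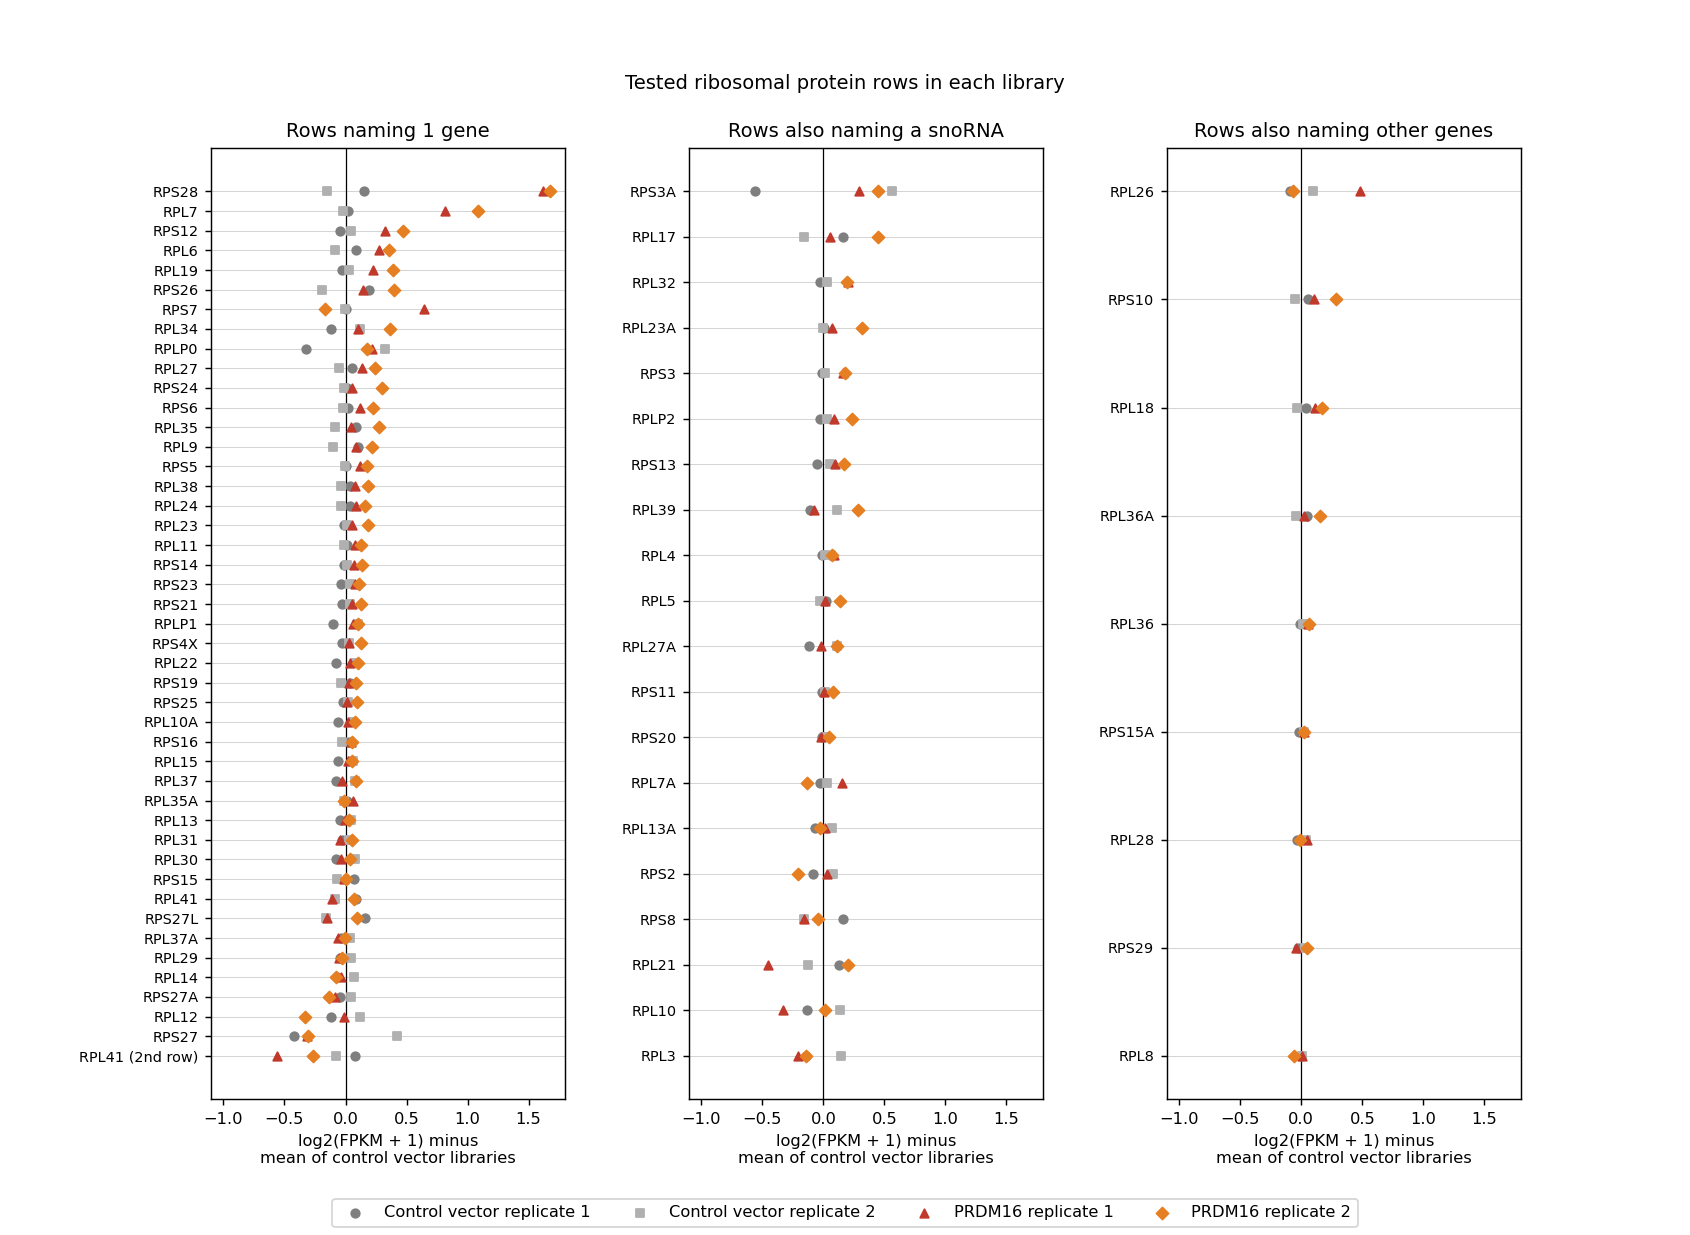
Level of the tested ribosomal protein rows, all but 1, in each of the 4 libraries, as log2(FPKM + 1) minus the mean of the control vector libraries (x axis), with 1 line per row and 1 panel per class of row. Most rows lie within 0.2 of 0, RPS28 and RPL7 stand to the right in both PRDM16 libraries (triangles and diamonds), and PRDM16 replicate 2 holds the highest value of 44 of the 75 tested rows.

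The classes of row gave close pictures. Of all tested loci, 50.7% had a log2 change above 0, 21.1% had both PRDM16 libraries above and 20.3% both below. At 100 FPKM or more these shares were 62.9%, 28.0% and 14.4%. Among the 45 tested rows naming a single gene, 34 had a log2 change above 0, 17 had both PRDM16 libraries above and 2 below, with a median of 0.08. Among the 21 rows shared with a snoRNA, 15 were above 0, 7 had both libraries above and 0 below, with a median of 0.07. The 9 tested rows shared with other genes had 8 above 0 and 4 with both libraries above, with a median of 0.06. By subunit, 13 of 28 small subunit rows (46.4%) and 14 of 44 large subunit rows (31.8%) had both PRDM16 libraries above, and medians were 0.08 and 0.06. Differences between classes and between subunits were not tested. All 3 stalk rows had a log2 change above 0.

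**Figure D2:**
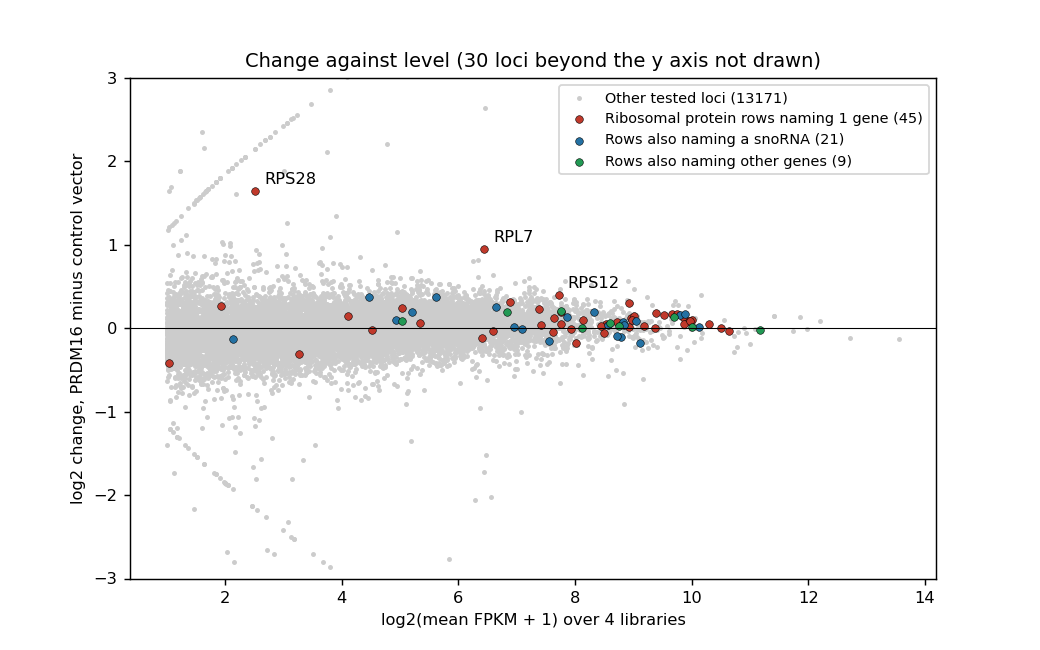
Log2 change of log2(FPKM + 1), PRDM16 minus control vector (y axis), against log2(mean FPKM + 1) over the 4 libraries (x axis) for all tested loci in grey and for the 3 classes of ribosomal protein row in colour. The members sit mostly at the right, where loci of all kinds scatter least, and RPS28, RPL7 and RPS12 are the highest among them. On this plot 30 loci beyond 3 on the y axis are not drawn.

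The 5 members with the smallest p were all rows naming a single gene, and the annotated starts of 4 of them and of 5 further members are shown because the tract at the start is the feature that ribosomal protein mRNAs share. Sequences are from RefSeq, build GRCh38.p14, and run 5′ to 3′ on the strand of the gene, with 25 bases before the annotated start and 25 from it on. Capitals mark a pyrimidine tract, a C followed by at least 4 further C or T, counted from a C at or within 5 bases of the start. The base before that C can be a pyrimidine too, as in all marked starts but that of RPS28, so the unbroken run can begin earlier. RPS12, RPL19, RPS28 and RPL6 come first, then RPLP0 of the stalk, RPL11, RPS18, and the paralogue pair RPS27 and RPS27L.
RPS28, chr19:8321471-8321520, plus strand: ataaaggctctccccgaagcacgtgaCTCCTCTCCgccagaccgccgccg
RPS12, chr6:132814544-132814593, plus strand: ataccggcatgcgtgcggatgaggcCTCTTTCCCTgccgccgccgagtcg
RPL19, chr17:39200298-39200347, plus strand: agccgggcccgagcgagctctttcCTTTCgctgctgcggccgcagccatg
RPL6, chr12:112409261-112409310, minus strand: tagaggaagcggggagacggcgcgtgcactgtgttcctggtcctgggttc
RPLP0, chr12:120201087-120201136, minus strand: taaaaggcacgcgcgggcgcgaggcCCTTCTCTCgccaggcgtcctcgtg
RPL11, chr1:23691781-23691830, plus strand: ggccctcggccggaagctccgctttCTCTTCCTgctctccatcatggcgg
RPS18, chr6:33272050-33272099, plus strand: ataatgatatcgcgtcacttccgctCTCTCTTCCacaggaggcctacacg
RPS27, chr1:153990737-153990786, plus strand: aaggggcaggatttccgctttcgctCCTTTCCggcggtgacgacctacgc
RPS27L, chr15:63157453-63157502, minus strand: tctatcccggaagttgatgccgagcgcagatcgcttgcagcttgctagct

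Of these 9 starts, those of RPL6 and RPS27L had no such tract. A start was listed in RefSeq's promoter set for 63 of the 81 symbols. A tract counted from the annotated start base itself was found for 45 of the 63 (71.4%), against 5.14% of the 27305 genes in the table. Counted from a C within 5 bases, a tract was found for 52 (82.5%) against 25.2%. The motif CCGGAA, the core bound by ETS factors, was found on either strand of the 300 bases around the start in 37 of the 63 (58.7%) against 20.1% of all genes. TATAAA or TATATA between 45 and 15 bases before the start was found in 8 of the 63 (12.7%) against 4.05%. Both L paralogues with a start in the table, RPL10L and RPS27L, lacked the tract. Of the 4 shown members with the smallest p, RPS28, RPS12 and RPL19 have the tract and RPL6 has none at its annotated start.

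RPS28, a small subunit protein near the mRNA exit, had the largest change of all members. Its row stood at 2.07 and 1.49 FPKM in the control vector and at 7.51 and 7.85 FPKM in PRDM16. Both PRDM16 libraries were well above both controls, at 1.78 ± 0.41 against 7.68 ± 0.238 FPKM (SD, n = 2 each), a 4.31-fold difference in means. The log2 change was 1.65 (SE 0.15), with an adjusted p of 0.175 in limma. Over the alternatives that gave a value the adjusted p ran from 0.0858, without control vector replicate 1, to 0.947, without PRDM16 replicate 2. In GENCODE 29 the gene spans bases 8321158 to 8323340 of chromosome 19, plus strand (hg38). The level of this row is far under that of most small subunit genes, and its pseudogene RPS28P7 stood at 607 and 577 FPKM in the control vector and at 564 and 617 FPKM in PRDM16. The gene and its pseudogenes summed to 609 and 578 FPKM against 571 and 625 FPKM, which overlap, a ratio of means of 1.01. Pseudogene rows held 99.2% of the family's signal, so the 4.31-fold difference concerns the small remainder.

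RPL7, a large subunit protein, had the second largest change. It stood at 59.1 and 57.1 FPKM in the control vector and at 103 and 124 FPKM in PRDM16. The groups did not overlap, with means of 58.1 ± 1.4 and 114 ± 14.9 FPKM (SD, n = 2 each), a log2 change of 0.95 (SE 0.12) and an adjusted p of 0.447 in limma. RPL7 has 60 pseudogene rows, of which 37 were above 0, and they summed to 261 and 240 FPKM in the control vector, against 243 and 255 FPKM in PRDM16. Their sum did not differ beyond the spread between libraries. Gene and pseudogenes together came to 320 and 297 FPKM against 346 and 380 FPKM, a 1.18-fold difference in means where the gene's own row gave 1.96-fold.

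RPS12 and RPL19 differed from the first pair in having almost no pseudogene signal. RPS12, a small subunit protein, stood at 175 and 187 FPKM in the control vector and at 226 and 251 FPKM in PRDM16. Both PRDM16 libraries were higher, with a log2 change of 0.40 (SE 0.10) and a 1.32-fold difference in means, and the pseudogenes held 0.752% of the family's signal. RPL19, a large subunit protein, stood at 427 and 444 FPKM against 509 and 569 FPKM. Its groups did not overlap either, with means of 435 ± 11.8 and 539 ± 42.0 FPKM (SD, n = 2 each) and a log2 change of 0.31 (SE 0.09). RPL6, a large subunit protein whose pseudogenes held 47.9% of the family's signal, stood at 111 and 98.2 FPKM against 127 and 134 FPKM, and its pseudogenes at 113 and 95.9 FPKM against 108 and 117 FPKM. Its row had a log2 change of 0.32 (SE 0.10). The adjusted p in limma was 0.689 for RPS12, RPL19 and RPL6 alike.

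**Figure D3:**
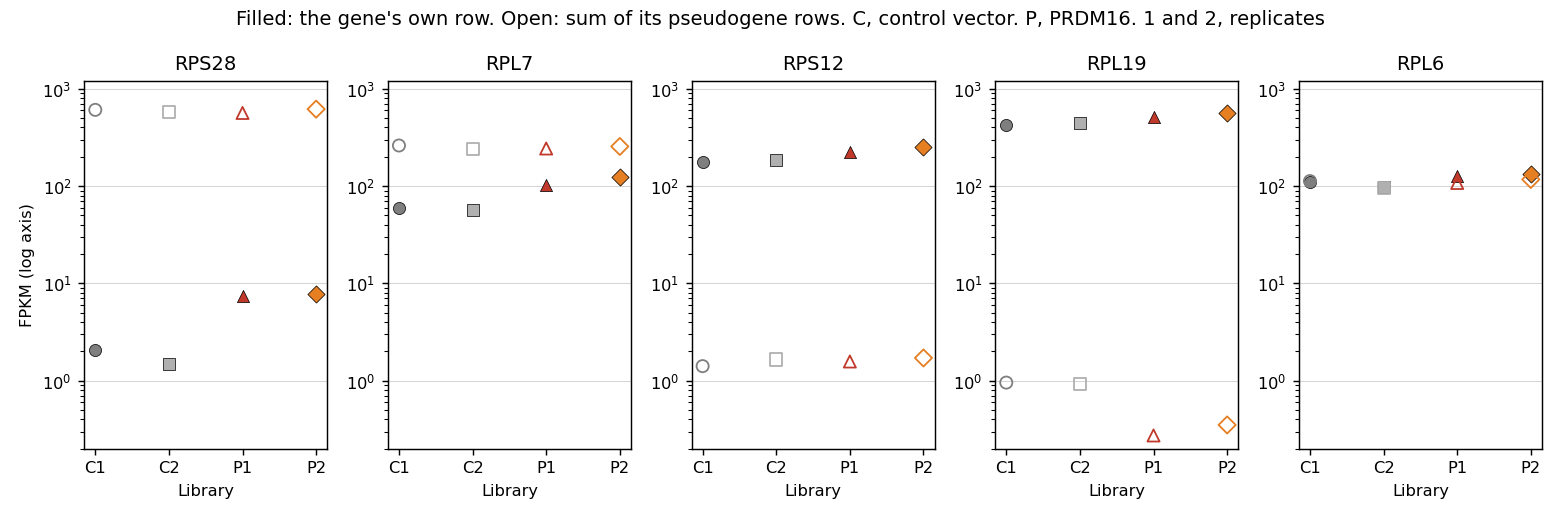
FPKM on a log axis (y axis) in control vector replicates 1 and 2 (C1, C2) and PRDM16 replicates 1 and 2 (P1, P2) for 5 ribosomal protein genes, with filled symbols for the gene's own row and open symbols for the sum of its pseudogene rows. For RPS28 the pseudogene sum lies between 564 and 617 FPKM in every library while the gene's row stands at 2.07 and 1.49 against 7.51 and 7.85 FPKM, and for RPS12 and RPL19 the gene's row lies far above its pseudogenes.

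Other small subunit genes were higher with PRDM16 by less. RPS6, the small subunit protein phosphorylated by the S6 kinases, stood at 818 and 797 FPKM in the control vector and at 877 and 943 FPKM in PRDM16, for a log2 change of 0.17 (SE 0.08). RPS3, which lines the mRNA entry, is on a row shared with SNORD15A and stood at 885 and 902 FPKM against 997 and 1010 FPKM, for a log2 change of 0.17 (SE 0.07). In both genes the groups did not overlap, but the adjusted p in limma was 0.689. RPS27A, which encodes ubiquitin fused to a ribosomal protein, had both PRDM16 libraries below, at 83.8 and 89.4 FPKM against 81.5 and 78.6 FPKM.

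Among the rows shared with snoRNAs, 7 of 21 (33.3%) had both PRDM16 libraries above and 0 had both below. Of all tested loci, 21.1% had both above and 20.3% both below. RPL32, a large subunit protein, on a row with SNORA7A stood at 290 and 303 FPKM in the control vector and at 341 and 339 FPKM in PRDM16, for a log2 change of 0.20 (SE 0.08) with an adjusted p of 0.689 in limma. RPL3, which lies close to the peptidyl transferase centre, had the lowest log2 change of the snoRNA-sharing rows at -0.17 (SE 0.12), from 526 and 644 FPKM against 503 and 529 FPKM. Its groups overlap, because control vector replicate 1 lay below PRDM16 replicate 2. RPS3A with SNORD73A stood at 11.6 and 26.5 FPKM against 21.8 and 24.4 FPKM. Both PRDM16 values lay between the control values, and without control vector replicate 1 its log2 change turned from 0.37 to -0.19. A row that adds snoRNA or neighbouring genes to the ribosomal protein cannot tell their signals apart.

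None of the stalk genes passed the test. RPLP0, the base of the stalk, stood at 158 and 249 FPKM in the control vector and at 231 and 224 FPKM in PRDM16, and its log2 change of 0.20 turned to -0.13 without control vector replicate 1. RPLP1 stood at 889 and 1021 FPKM against 996 and 1020 FPKM. RPLP2, on a row with SNORA52, stood at 822 and 854 FPKM against 888 and 983 FPKM, the stalk row whose groups did not overlap.

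RPL5 and RPL11 form, with a ribosomal RNA, the particle that binds MDM2 when ribosome assembly is disturbed. RPL11 stood at 1005 and 988 FPKM in the control vector and at 1050 and 1089 FPKM in PRDM16, with a log2 change of 0.10 (SE 0.07). RPL5 stood at 446 and 430 FPKM against 441 and 481 FPKM, and its groups overlap. CDKN1A, the p53 target that such stress induces, stood at 79.8 and 98.1 FPKM against 65.8 and 61.2 FPKM. Of the 11 tested genes in the list of ribosomal protein chaperones and partners of this particle, CDKN1A among them, 0 passed the adjusted test. At an unadjusted limma p under 0.05 there was 1, CDKN1A, which was lower, beside 2.42% of all tested loci higher and 3.70% lower. In 3 genes (27.3%) both PRDM16 libraries lay above and in 2 (18.2%) below, beside 21.1% and 20.3% of all tested loci. The median log2 change was -0.01.

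The rows of genes mutated in Diamond-Blackfan anaemia, an inherited red cell aplasia, differed widely in level. RPS19 stood at 1258 and 1198 FPKM in the control vector and at 1252 and 1301 FPKM in PRDM16. RPS24 stood at 765 and 756 FPKM against 788 and 933 FPKM, with both PRDM16 libraries above. Its pseudogene rows summed to 102 and 100 FPKM against 97.5 and 27.6 FPKM, low only in PRDM16 replicate 2, where the gene was highest. Gene and pseudogenes together came to 867 and 856 FPKM against 885 and 961 FPKM. The division of reads between RPS24 and its pseudogenes was not tested. RPL35A stood at 581 and 571 FPKM against 600 and 570 FPKM. RPS26 stood at 2.91 and 2.01 FPKM against 2.78 and 3.51 FPKM, a level far under that of RPS19. Its 24 pseudogene rows held 36.8% of the family's signal. How reads were divided between them and the gene was not tested. By the genes' own rows, only RPS24 of these 4 had groups that did not overlap, and its adjusted p in limma was 0.689.

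The untested rows were of several kinds. RPL3L, RPL10L and RPL39L, paralogues known from muscle or testis, had means of 0.0304, 0.00884 and 0.0352 FPKM. RPS10L, which RefSeq lists as another name of the pseudogene RPS10P5, stood at 0.320 and 0.286 FPKM in the control vector and at 0.0639 and 0.0687 FPKM in PRDM16. RPS9, a small subunit protein that every ribosome holds, had a mean of 0.129 FPKM, and RPS18 was listed at 0 in all 4 libraries. An exact 0 for a gene that growing cells need can be a failed estimate, so no level is read from it. The RPS18 start carries a tract like those of the abundant members, as printed above, and the pseudogene rows of RPS18 summed to 26.2 and 27.5 FPKM in the control vector, against 24.7 and 29.8 FPKM in PRDM16.

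Some ribosomal proteins have a paralogue, and some of these paralogues can take their place in the ribosome. RPS27 stood at 6.80 and 13.01 FPKM in the control vector and at 7.38 and 7.46 FPKM in PRDM16, and its log2 change of -0.31 turned to 0.11 without control vector replicate 2. RPS27L, a p53 target, stood at 107 and 86.1 FPKM against 86.4 and 103 FPKM, and its groups overlap. RPL22 stood at 36.6 and 40.9 FPKM against 39.8 and 41.5 FPKM and its paralogue RPL22L1 at 38.9 and 35.2 FPKM against 40.9 and 46.4 FPKM, so both were at about the same level and RPL22L1 had both PRDM16 libraries above. RPL3 and RPL10 were abundant while RPL3L and RPL10L were near 0, and RPL10 stood at 179 and 216 FPKM against 156 and 198 FPKM. RPL7L1 and RPL26L1 also had both PRDM16 libraries above, with RPL26L1 at 20.3 and 19.2 FPKM against 20.9 and 24.8 FPKM. RPL26 itself, on a row with KRBA2, stood at 186 and 213 FPKM against 278 and 190 FPKM, so that PRDM16 replicate 1 alone was high, and without that library its log2 change turned from 0.21 to -0.066.

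Pseudogene rows held a large part of the signal of some families. Leaving out the 5 L paralogues, 76 symbols remained, of which 74 had at least 1 row naming a pseudogene, 874 rows in all. Of these rows 435 were listed at 0 in all 4 libraries and 125 were tested. In 18 families the pseudogene rows summed to more than the gene's own row, and in 37 they held less than 10% of the family. High pseudogene shares were those of RPS28 (99.2%), RPL39 (94.9%) and RPL23A (88.6%, with 89 pseudogene rows). RPL21, with 58 pseudogene rows, was low in both, at a gene mean of 3.42 FPKM and a pseudogene mean of 1.55 FPKM. Across the 76 symbols the gene's level had a Spearman correlation of -0.38 with the number of its pseudogene rows and of -0.09 with their summed level. These are descriptions over genes that share the 4 libraries.

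**Figure D4:**
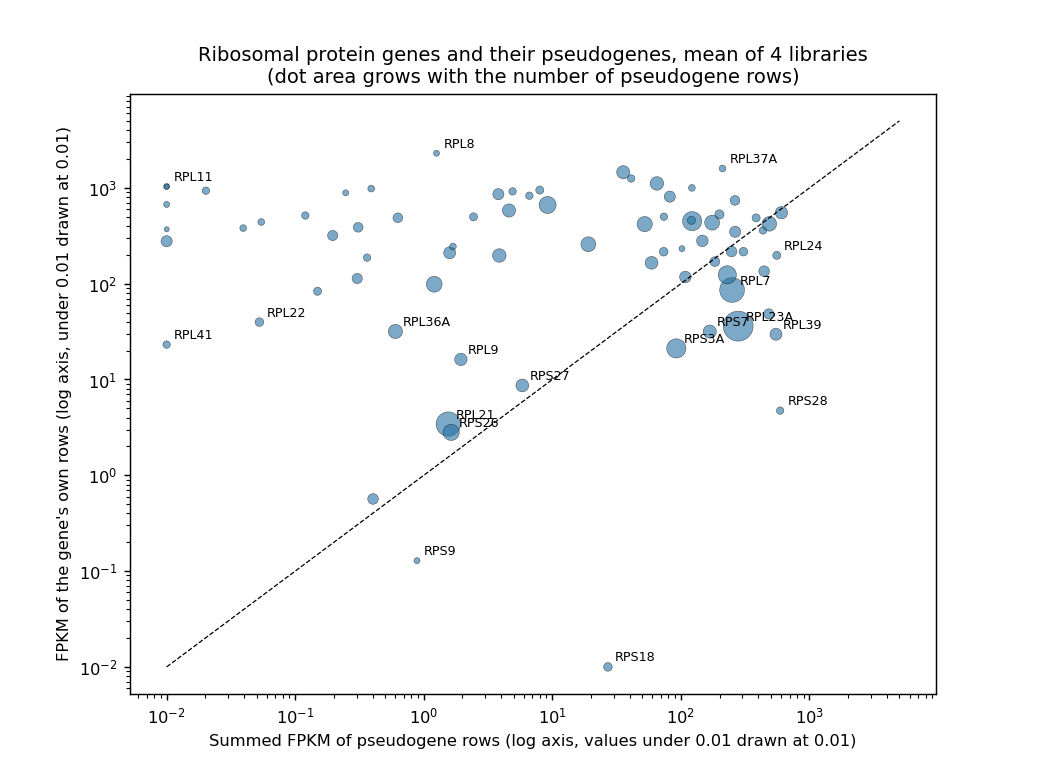
FPKM of the ribosomal protein genes' own rows (y axis) against the summed FPKM of its pseudogene rows (x axis), both as means of the 4 libraries on log axes, with dot area growing with the number of pseudogene rows. The 18 families under the dashed line of equality have more signal in pseudogene rows than in the gene's row, with RPS28 and RPS18 furthest below it.

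With the pseudogene rows added, the range of differences was narrower. The largest ratio of group means was 4.31 for a gene's own rows and 1.48 for a family sum, the latter for RPS26. That family was low, with sums of 4.53 and 2.62 FPKM in the control vector, against 5.39 and 5.20 FPKM in PRDM16. Ratios of family sums ranged down to 0.854, for RPS27. The median ratio was 1.06 for the genes' own rows and 1.04 for the family sums. In 31 of the 76 families both PRDM16 sums lay above both control sums and in 3 both lay below, where single loci gave 21.1% above and 20.3% below (28.0% and 14.4% at 100 FPKM or more). The tested pseudogene rows themselves had a log2 change above 0 in 75 of 125 (60.0%), both PRDM16 libraries above in 25 (20.0%) and below in 12 (9.60%), with a median of 0.02. Limma called 0 of them. Of the 125, 2 were higher and 2 lower at an unadjusted limma p under 0.05, beside 2.42% of all tested loci higher and 3.70% lower. All pseudogene rows summed to 8797 and 8695 FPKM in the control vector, against 8616 and 8756 FPKM in PRDM16, which overlap. How the authors' tool divided reads that match a gene and its pseudogenes was not tested.

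Genes whose products build ribosomes were mostly higher with PRDM16 as well, though the difference from the ribosomal proteins was not tested. Of 30 ribosome assembly factors on single-name rows, 28 had a log2 change above 0, 24 (80.0%) had both PRDM16 libraries above and 1, WDR12, both below, with a median of 0.28. Of all tested loci, 50.7% were above 0, 21.1% had both PRDM16 libraries above and 20.3% below, here as for the lists that follow. None was called. At an unadjusted limma p under 0.05, 5 were higher (GAR1, RPF2, NIP7, NOL11 and RIOK1) and 0 lower, beside 2.42% of all tested loci higher and 3.70% lower. GAR1, a protein of the particles that make pseudouridine in ribosomal RNA, stood at 42.7 and 40.1 FPKM in the control vector and at 53.3 and 52.7 FPKM in PRDM16. RPF2, which brings RPL5 and RPL11 into the large subunit, stood at 17.2 and 17.4 FPKM against 21.2 and 23.2 FPKM. NIP7, a large subunit assembly factor, stood at 51.0 and 43.4 FPKM against 59.5 and 62.5 FPKM. Control vector replicate 2 was the lowest library for 23 of the 30, and without it the median was 0.16. Then 25 had both PRDM16 libraries above the remaining control, beside 34.0% of all tested loci in that setting, where fewer libraries must be ordered. The list's sums were 1750 and 1424 FPKM against 1876 and 1951 FPKM. Control vector replicate 2 was lowest for 23 of the 75 ribosomal protein rows and for 5149 of all 13246 tested loci.

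RNA polymerase I, which transcribes the large ribosomal RNA, and its factors gave 10 of 12 tested genes above 0, 5 with both PRDM16 libraries above and 1 below, with a median of 0.12 that was 0.034 without replicate 2 of the control vector and 0.25 without its replicate 1. POLR1E stood at 23.8 and 18.8 FPKM in the control vector and at 27.0 and 30.1 FPKM in PRDM16. A further list held subunit genes, paralogues and genes with related names outside the naming rule. All 7 tested genes had a log2 change above 0, 5 with both libraries above, and the median was 0.20. That median was 0.13 without control vector replicate 2, the lowest library for 6 of the 7. It was 0.12 without PRDM16 replicate 2, the highest for all 7. Among translation factors and other genes known for tract-bearing mRNAs, 5 of 10 were above 0, 4 had both PRDM16 libraries above and 2 below. Their median of 0.03 was 0.06 without control vector replicate 2 and -0.0034 under quantile normalization. Among these EEF1A1, the elongation factor that delivers aminoacyl-tRNA, stood at 608 and 772 FPKM against 358 and 565 FPKM, and NPM1, a nucleolar chaperone, at 972 and 814 FPKM against 1109 and 1025 FPKM. The mTOR pathway and regulators of these mRNAs gave 9 of 16 above 0, 7 with both libraries above and 3 below. Their median of 0.06 was 0.12 when PRDM16 replicate 2 was left out and 0.025 under quantile normalization. RHEB, the GTPase that activates mTOR, stood at 36.5 and 37.1 FPKM against 45.4 and 43.4 FPKM. MYC, an activator of ribosome synthesis, stood at 68.4 and 67.5 FPKM against 88.1 and 77.7 FPKM. Of 13 snoRNA host genes without a ribosomal protein, GAS5 and EPB41L4A-AS1 had rows of their own, and their median of -0.25 turned to 0.10 without control vector replicate 2. In these 5 lists limma called 0 genes at an adjusted p under 0.05. At an unadjusted limma p under 0.05 there were 4 genes of RNA polymerase I and 2 of the mTOR list, all higher, and 0 of the others. Of all tested loci, 2.42% were higher and 3.70% lower by that measure.

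**Figure D5:**
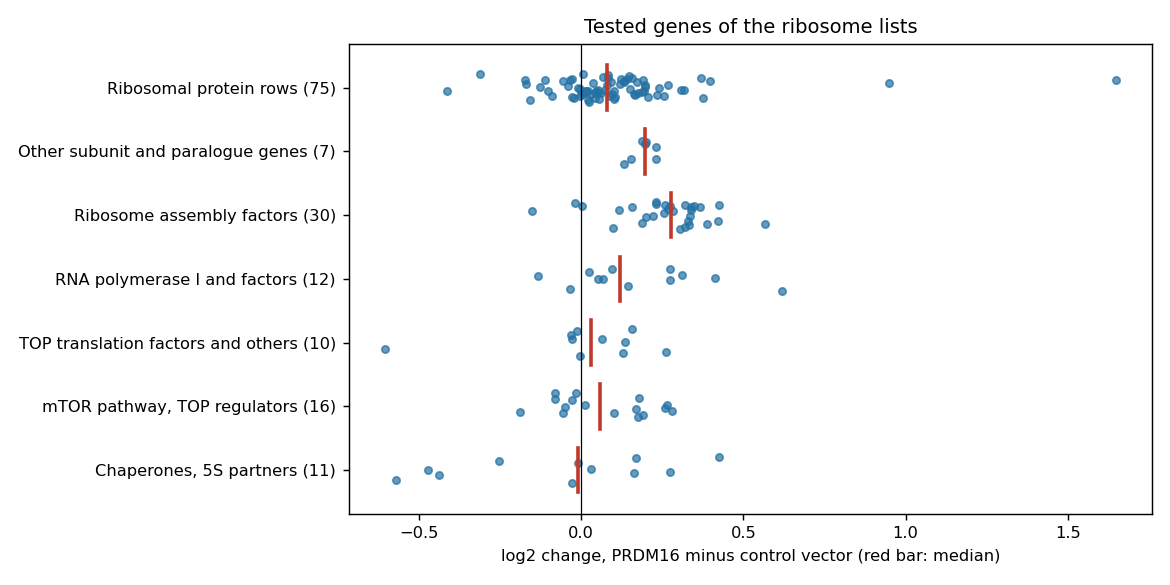
Log2 change of log2(FPKM + 1), PRDM16 minus control vector (x axis), for each tested gene of the ribosomal protein rows and of 6 lists of ribosome-related genes (dots), with the median of each list as a red bar. The assembly factors have a median of 0.28 and the ribosomal protein rows of 0.08, with RPS28 and RPL7 as the dots furthest to the right.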

How the data were processed

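Total RNA of 786-O cells was sequenced in 4 libraries, and 1 value per locus and library was deposited. Per the submitters' processing notes, the tools were Cufflinks 2.2.1 with Cuffdiff, TopHat2 2.1.0 and Trim Galore, with the hg38 build. The authors' values were taken as FPKM, a unit the header does not name, because they hold decimals and each library's total is neither that of counts nor a fixed sum (556213 at the lowest, 574003 at the highest). For annotation, filters, strand and reads with several matches, the authors' choices were not given in the sources used here, and depth is known only as a ratio. Loci with a mean of at least 1 FPKM were tested on log2(FPKM + 1) with limma 3.58.1 in R 4.3.3 (linear model, variance trend, two-sided), adjusted over 13246 loci by Benjamini-Hochberg at 0.05. This scale understates changes of low genes.

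Members followed the name rule, and pseudogenes were rows with a single name of a member symbol plus P and a number, 871 of 874 found in GENCODE 29. In each of the first 2 classes the members described in detail were up to 8 with the smallest p and the 3 highest and 3 lowest, plus stalk, MDM2-binding, anaemia and paralogue genes, and up to 3 of each other list by p. Some genes enter the counts but are not reported here by name. Members and lists were chosen with earlier results of these data known. The fit was tested on simulated data. Alternatives were pseudocounts of 0.1 and 0.5, no filter or 5 FPKM, 3 scalings, no variance trend, the replicate number as a block, and leaving out each library. Plots used matplotlib 3.10.9, and tables pandas 2.3.3 and numpy 2.4.6 under Python 3.11.15.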

Additional observations from a re-analysis of the deposited data

How the results depend on the processing

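Limma called 0 ribosomal protein rows under every alternative run. With the replicate number as a block 0 were called as well. The differences between replicates 1 and 2 in the groups had a correlation of -0.06 over the 13246 tested loci and of -0.22 over the 75 members. These values show no shift shared by libraries of the same number, but cannot tell whether the libraries were paired. The block changed no call among the members. Over all loci 5 were called in place of 3, and 3 members in place of 5 had an unadjusted limma p under 0.05. The following results moved. The median log2 change of the snoRNA-sharing rows, 0.07, was 0.034 under quantile normalization and 0.026 to 0.13 when 1 library was left out. The count of single-name rows with both PRDM16 libraries above, 17 of 45, was 11 under quantile normalization and 19 to 29 when 1 library was left out. That of snoRNA-sharing rows, 7 of 21, was 4 and 8 to 13. The share of all tested loci, 21.1%, was 21.5% under quantile normalization and 30.1% to 43.9% when 1 library was left out. With a library left out, fewer libraries must be ordered, so more rows qualify; the cause of the quantile values was not tested. These counts were chosen after seeing the data, as were the list medians for assembly factors and RNA polymerase I.

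Under quantile normalization 52 members in place of 57 had a log2 change above 0; of those followed singly, RPL37A turned to 0.029 and RPS20 to -0.014. With 1 library left out, it crossed 0 for 14 of those followed singly, given here by lowest and highest value: RPL10 -0.33 to 0.014, RPL21 -0.46 to 0.20, RPL22 -0.0086 to 0.15, RPL26 -0.066 to 0.48, RPL30 -0.080 to 0.075, RPL35A -0.015 to 0.058, RPL37A -0.074 to 0.0062, RPL39 -0.074 to 0.28, RPLP0 -0.13 to 0.52, RPLP1 -0.017 to 0.18, RPS20 -0.017 to 0.046, RPS27 -0.73 to 0.11, RPS27L -0.19 to 0.13 and RPS3A -0.19 to 0.93. Count-based tests were not run, because the file holds no counts. A library left alone in its group was assumed to vary like the other group. Read totals are unknown, so no counting error is given, and low rows such as RPS28 and RPS26 rest on an unknown number of reads.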
